A study of Mus musculus with 6 samples.

Results

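The 44 collagen chain genes described here are all genes on the array whose symbol has the form of a collagen type number followed by an alpha chain number, out of 22180 genes read by a probeset with a single gene symbol. Where a gene had several probesets, the brightest on average was taken. Total brain RNA was hybridised to Mouse Gene 2.0 ST arrays, which read each gene with a set of short probes, from mice aged 91 days, in 6 samples with 1 array each. The 3 control samples were from mice of the genotype Thy1Cre-ERT2-EYFPHuRf/+, with 1 of the 2 alleles of Elavl1, the gene of the RNA-binding protein HuR, flanked by recombination sites, and the 3 knockout samples were from Thy1Cre-ERT2-EYFPHuRf/f mice, with both alleles flanked. Mice of both genotypes thus carried the same tamoxifen-inducible Cre recombinase and yellow fluorescent reporter under the Thy1 promoter, which drives expression in neurons, and all received tamoxifen at 10 and 11 weeks of age. Deletion was therefore directed at neurons, while the cells that make most brain collagen were not the target, and the controls could also lose 1 allele.

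Collagens are triple-helical proteins of the extracellular matrix, each assembled from 3 alpha chains rich in glycine and proline. Fibrillar collagens form the tensile fibres of the meninges and of vessel walls, type IV collagens form the sheet-like network of basement membranes around capillaries and under the pial surface, and smaller classes decorate fibrils, link cells to matrix or are anchored in the cell membrane. In adult brain, collagens are made largely by meningeal and perivascular fibroblasts, by endothelial cells and by pericytes, with a few chains made by neurons and glia.

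Levels below are log2(intensity + 1) after quantile normalization, in which the arrays are given the same distribution of values, and a difference is a log2 fold change, knockout minus control. Elavl1 itself measured 8.27 ± 0.261 on the control arrays and 8.22 ± 0.0458 on those of the knockouts (log2 level, mean ± SD, n = 3 each), with a 95% confidence interval of the difference from -0.39 to 0.29, so whole brain showed no detectable loss of the transcript and this reading does not check the labels. Markers of neurons (6 genes, mean levels from 8.51 to 11.82), astrocytes (4 genes, 7.03 to 9.91) and oligodendrocytes (3 genes, 8.18 to 8.77) were present. Control 3 and knockout 3 differed from the other 4 arrays: Xist, the noncoding RNA of X inactivation, read 7.69 and 7.68 there and 2.52 to 2.79 elsewhere. Both arrays numbered 3 lay below all other arrays in 20.6% and above them in 23.4% of the 16635 genes tested, and results are given without these arrays where they matter. In bulk brain RNA, fewer cells of a type and less RNA per cell cannot be told apart.

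No collagen chain gene passed the test of knockout against control brain across all genes. Of the 44 genes, 43 passed the filter on dim genes, and 0 of these 43 had a Benjamini-Hochberg adjusted p under 0.05 in limma, where the share of all genes tested was 0%. At an unadjusted p under 0.05 in limma there were 2 collagen genes, the network chain Col4a6 and the transmembrane chain Col23a1, both lower in knockout, and there were 0 without control 2 and 0 without knockout 2; 1.7% of all genes tested passed this limit in either direction and 0.763% with lower values in knockout. The groups did not overlap in 3 of the 43 genes (6.98%), Col3a1 above and Col4a6 and Col5a1 below, against 5.7% of all genes tested, 3.14% above and 2.55% below. With same-numbered arrays as pairs, 3 collagen genes (Col3a1, Col4a6 and Col23a1) had an unadjusted limma p under 0.05, against 4.85% of all genes tested, and 0 an adjusted one. How the arrays numbered 1 and 2 pair could not be told from the data, which limits every value given with pairs. Values lay above 0 in 17 and below 0 in 26 genes (median difference -0.011), where all genes tested had a median of 0.013, with 54.8% of them above and 45.2% below 0. When arrays were instead centred on their median, 20 collagen genes lay above and 23 below 0. The size of the difference was under 0.2 in 35 of the 43 genes (81.4%) and in 88.3% of all genes tested. In 42 of the 43 genes the 95% confidence interval of the difference lay within a 2-fold change in either direction (97.7%, against 98.3% of all genes tested); the exception was Col1a1. No label identifies individual mice, and p-values therefore reflect only the variation among these 6 samples, which may be technical. Many collagens gave dim signals, with mean log2 levels under 4 for 14 of the 44 genes and from 4 to under 5 for 18, where the median of all probesets on an array was 3.85 to 3.97 before normalization, and differences of dim genes are understated on this scale.

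**Figure D1:**
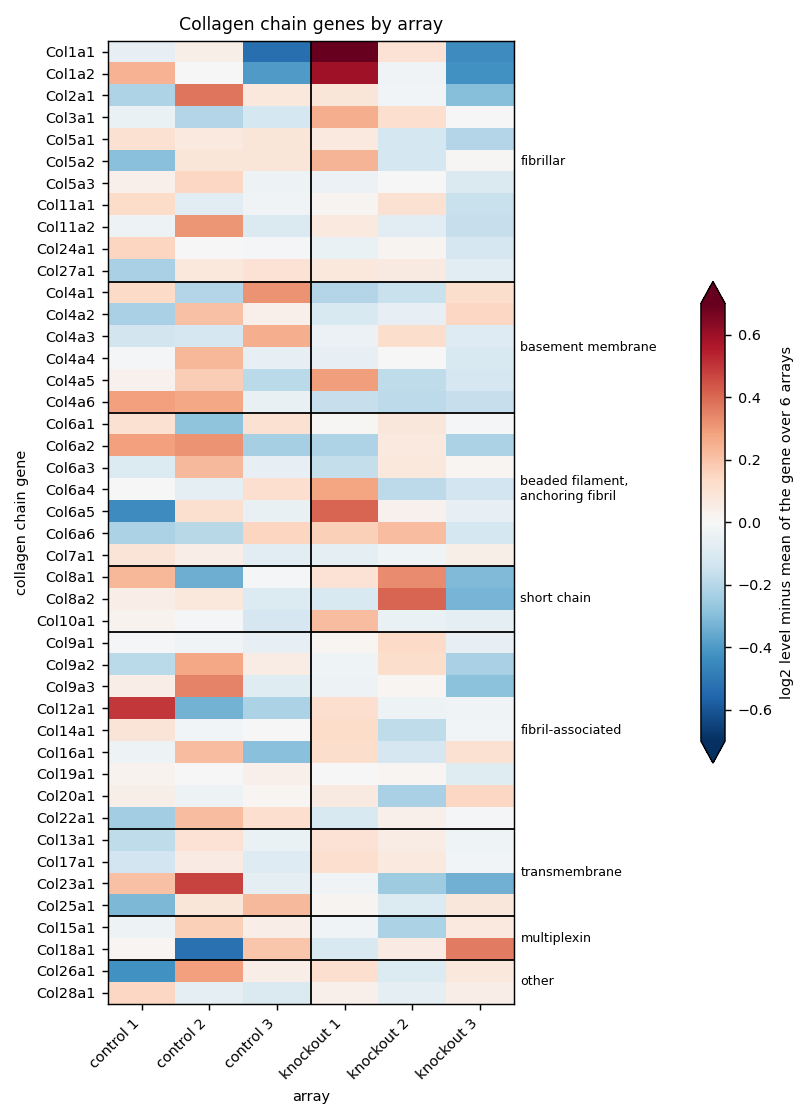
Heat map of the 44 collagen chain genes (rows, by structural class) on the 6 arrays (columns), each cell coloured by the log2 level minus the mean of that gene over the 6 arrays; colours saturate beyond the ends of the scale. Col1a1 and Col1a2 stand out with their highest value on knockout 1 and low values on both arrays numbered 3, while no class is coloured one way in all control and the other way in all knockout arrays.

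**Figure D2:**
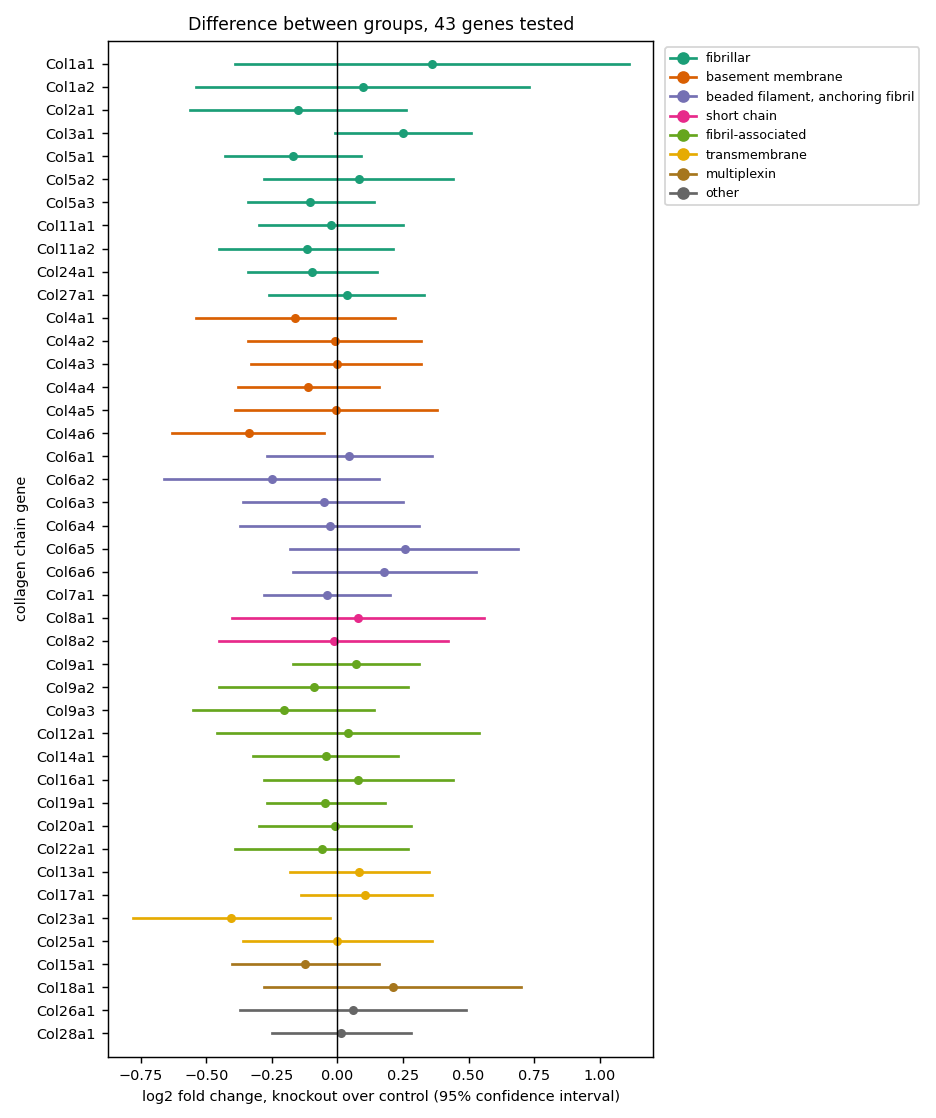
Log2 fold change, knockout minus control (points) with its 95% confidence interval (lines, limma, n = 3 per group) for the 43 collagen chain genes tested, coloured by structural class. Only the intervals of Col4a6 (-0.63 to -0.05) and Col23a1 (-0.78 to -0.03) leave out 0, and that of Col1a1 (-0.39 to 1.11) is the widest.

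The sequence just before the annotated transcription start is shown for 4 genes described below, so that the differing control regions of these chains can be seen: Col1a2 and Col3a1 among the fibrillar chains, Col4a6 and Col23a1 as the members with the smallest p. None of the 4 had an adjusted p under 0.05, and for Col1a1 no start site was matched. Each line gives the 150 bases before the start in the direction of transcription, from RefSeq, assembly GRCm38.p6. Capitals mark matches, on either strand, to any of 3 short runs of letters. The first, of the TATA box type, was TATAAA. The second, of the CCAAT box type, was CCAAT. The third, of the GC box type, was GGGCGG, and its capitals in these windows are those of a match on the opposite strand. No match overlaps another here.
Col1a2, chr6:4505468-4505617, plus strand: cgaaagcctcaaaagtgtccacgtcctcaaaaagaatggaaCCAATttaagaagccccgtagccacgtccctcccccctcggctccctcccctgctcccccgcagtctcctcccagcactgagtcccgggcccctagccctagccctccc
Col3a1, chr1:45311388-45311537, plus strand: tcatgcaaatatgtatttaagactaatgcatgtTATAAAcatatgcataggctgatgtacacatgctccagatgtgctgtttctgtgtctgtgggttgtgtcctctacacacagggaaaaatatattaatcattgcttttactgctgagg
Col4a6, chrX:141474077-141474226, minus strand: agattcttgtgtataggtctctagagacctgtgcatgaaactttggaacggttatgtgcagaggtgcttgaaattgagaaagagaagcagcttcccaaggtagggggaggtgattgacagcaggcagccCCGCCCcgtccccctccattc
Col23a1, chr11:51289770-51289919, plus strand: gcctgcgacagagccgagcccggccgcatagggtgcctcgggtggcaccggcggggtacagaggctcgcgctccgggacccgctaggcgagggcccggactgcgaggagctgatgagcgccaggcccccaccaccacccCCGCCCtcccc
Each of the 4 windows held 1 match, and they differed in which: the second run in Col1a2, the first in Col3a1 and the third in Col4a6 and in Col23a1. The bases G and C made up 37.3% of the Col3a1 window and 76.7% of the Col23a1 window. RefSeq start sites were matched for 35 of the 44 genes, giving 38 windows. GGGCGG was found in 19 of the 38 (50%), against 28.6% of the 32851 windows of all genes, CCAAT in 8 (21.1%, against 24.5%) and TATAAA in 4 (10.5%, against 7.57%). These are letter matches anywhere in the window, not elements at a working distance from the start, and no measure of binding.

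Among the 11 fibrillar chains, 5 lay above 0 and 6 below (median difference -0.024, and 0.032 without both arrays numbered 3). Type I collagen, the main fibril of connective tissue, is built from the products of Col1a1 and Col1a2. Col1a1 read 6.19, 6.29 and 5.72 on control arrays 1, 2 and 3 and 7.13, 6.35 and 5.81 on the knockout arrays in the same order. Its groups overlapped, and knockout 1 alone lay well above the rest. The log2 fold change was 0.36 ± 0.323 (SE), or 1.28-fold with an interval from 0.761-fold to 2.16-fold (limma unadjusted p = 0.3, adjusted p = 1), and it was 0.009 without knockout 1, 0.669 without knockout 3 and 0.49 without both arrays numbered 3. Col1a2 read 6.22, 5.98 and 5.58 in control and 6.57, 5.95 and 5.55 in knockout brain. Here too knockout 1 was highest and both arrays numbered 3 were lowest, and the difference was 0.10 ± 0.273 (SE), with the sign turned, to -0.176, without knockout 1. The differences between same-numbered arrays were 0.93, 0.05 and 0.09 for Col1a1 and 0.34, -0.03 and -0.03 for Col1a2, so in both chains the difference rested on knockout 1. Without control 1 the log2 fold changes were 0.422 and 0.244.

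Type III collagen, which mixes with type I in extensible tissues such as vessel walls, is encoded by Col3a1. It read 4.65, 4.49 and 4.57 in control and 4.95, 4.81 and 4.70 in knockout brain. Each of the 3 knockout values exceeded each control value, by a gap of 0.054, and the difference did not follow knockout 1 alone, although knockout 1 was highest. The log2 fold change was 0.25 ± 0.112 (SE), or 1.19-fold with an interval from 0.991-fold to 1.43-fold (limma unadjusted p = 0.0596, adjusted p = 1, and unadjusted 0.0313 with same-numbered arrays as pairs). It was 0.185 without knockout 1 (limma unadjusted p = 0.196) and 0.31 without both arrays numbered 3.

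Type V collagen chains sit inside type I fibrils and limit their diameter. Col5a1 read 5.31, 5.27 and 5.29 in control and 5.27, 5.08 and 5 in knockout brain, a log2 fold change of -0.17 ± 0.11 (SE; limma unadjusted p = 0.163, adjusted p = 1). The groups were separated by a gap of only 8e-05, so the lack of overlap rests on values that are equal as printed. Col5a2, the direct genomic neighbour of Col3a1, had a value of 0.08, and Col5a3 one of -0.10. The cartilage-type fibrillar chains Col2a1, Col11a1 and Col11a2 were at -0.15, -0.02 and -0.12, and Col24a1 and Col27a1 at -0.10 and 0.04.

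**Figure D3:**
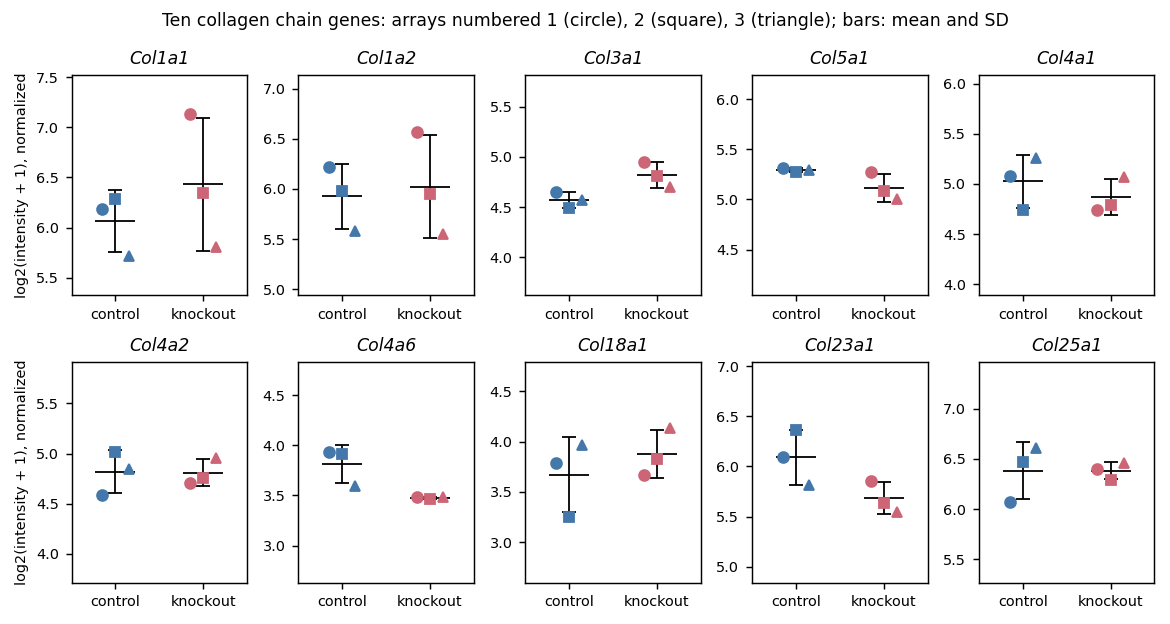
Normalized log2(intensity + 1) of 10 collagen chain genes on each array (circle, square and triangle for the arrays numbered 1, 2 and 3; blue control, red knockout; every panel spans the same range), with the mean and SD of each group of 3 as black bars. Col3a1 and Col4a6 show no overlap between groups, while the values of Col1a1, Col1a2, Col4a1 and Col18a1 separate the triangles from most other arrays in both groups.

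The 6 chains of type IV collagen form the basement membrane network, Col4a1 and Col4a2 in nearly all basement membranes and the other chains in more specialised ones. All 6 values lay below 0, with a median of -0.06, but 3 of them were within 0.01 of 0, and those of Col4a2 and Col4a5 turned sign with arrays centred on their median (0.02 for Col4a2). Col4a1 read 5.08, 4.74 and 5.26 in control and 4.74, 4.79 and 5.07 in knockout brain, a log2 fold change of -0.16 ± 0.164 (SE), which ran from -0.305 without control 2 to -0.043 without control 3. Col4a2, which pairs with Col4a1 in the same trimer, read 4.59, 5.02 and 4.85 in control and 4.71, 4.76 and 4.96 in knockout brain, a value of -0.01 ± 0.142 (SE). Neither separated the groups, and control 2 was the lowest array for Col4a1 beside knockout 1 but the highest for Col4a2, although these chains are transcribed from neighbouring starts on opposite strands of chromosome 8.

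Col4a6 was the network chain with a limma p under 0.05. It read 3.93, 3.91 and 3.59 in control and 3.48, 3.46 and 3.48 in knockout brain. All 3 knockout arrays lay below all 3 control arrays by a gap of 0.10, and their spread was small (SD 0.0157, against 0.195 in control). The log2 fold change was -0.34 ± 0.125 (SE), or 0.792-fold with an interval from 0.647-fold to 0.969-fold (limma unadjusted p = 0.0287, adjusted p = 1), and -0.45 without both arrays numbered 3. With 1 array left out it ran from -0.449 without control 3 to -0.276 without control 1. The limma unadjusted p was over 0.05 with any array but control 3 left out. With 16 instead of 1 added to the intensities, the log2 fold change was -0.155 (limma unadjusted p = 0.0698). The gene is dim, with knockout levels below the array medians. Col4a5, its neighbour on the X chromosome and partner in the network, had a value of -0.007 ± 0.164 (SE). The chains Col4a3 and Col4a4, neighbours on chromosome 1 that assemble with Col4a5 in kidney and other specialised basement membranes, were at -0.002 and -0.11; Col4a4 read 3.68, 3.92 and 3.63 in control and 3.63, 3.69 and 3.58 in knockout brain.

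The 7 chains of beaded filaments (type VI) and anchoring fibrils (type VII) had 3 values above and 4 below 0, with a median of -0.028, and 0 of them had a limma p under 0.05. Type VI collagen forms a microfibril around cells, and its main chains are Col6a1, Col6a2 and Col6a3. Col6a2 read 6.03, 6.06 and 5.51 in control and 5.53, 5.81 and 5.52 in knockout brain, a log2 fold change of -0.25 ± 0.175 (SE). Control 3 read like the knockout arrays, so the groups overlapped, and the value was -0.38 without both arrays numbered 3 (limma unadjusted p = 0.0305, adjusted p = 0.932). Col6a1, its neighbour on chromosome 10, was at 0.04 and Col6a3 at -0.05. Col6a5 read 2.99, 3.54 and 3.38 in control and 3.84, 3.46 and 3.37 in knockout brain, a value of 0.26 ± 0.186 (SE) that came from a low control 1 and a high knockout 1. Col6a6, the gene next to it on chromosome 9, read 4.22, 4.25 and 4.59 in control and 4.61, 4.66 and 4.32 in knockout brain, at 0.18 ± 0.15 (SE). In Col6a6 the arrays numbered 3 ran against the others, and without them the value was 0.40 (limma unadjusted p = 0.00916, adjusted p = 0.932). Col6a4 and Col7a1 were at -0.03 and -0.04.

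The short chain network collagens include Col8a1 and Col8a2, the chains of type VIII collagen of vessel walls and of the cornea, and Col10a1, made by cartilage. Col8a1 read 5.32, 4.75 and 5.08 in control and 5.19, 5.42 and 4.78 in knockout brain, and Col8a2 read 4.55, 4.58 and 4.41 in control and 4.40, 4.91 and 4.18 in knockout brain. Knockout 2 was the highest and knockout 3 lower than all control arrays or nearly so in both chains, and the log2 fold changes were 0.08 ± 0.206 and -0.01 ± 0.187 (SE). Col10a1 was the 1 member under the filter on dim genes and was not tested; it read 3.07 to 3.21 in control and 3.12 to 3.40 in knockout brain.

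The 9 fibril-associated chains, which bind to the surface of fibrils or of basement membranes, had 3 values above and 6 below 0, with a median of -0.043. Type IX collagen, first known from cartilage, is made of Col9a1, Col9a2 and Col9a3. Col9a3 read 5.54, 5.84 and 5.41 in control and 5.46, 5.51 and 5.21 in knockout brain, a log2 fold change of -0.20 ± 0.148 (SE). It was lower in knockout within every pair of same-numbered arrays (-0.08, -0.33 and -0.20), although the groups overlapped, and the log2 fold change was -0.081 without control 2. Col9a1 read 3.78, 3.77 and 3.74 in control and 3.81, 3.93 and 3.74 in knockout brain, at 0.07, and Col9a2 read 5.69, 6.15 and 5.93 in control and 5.85, 6 and 5.65 in knockout brain, at -0.09. The other chains of the class, Col12a1, Col14a1, Col16a1, Col19a1, Col20a1 and Col22a1, had values from -0.06 to 0.08. Among them Col12a1 had the widest control spread (SD 0.449, with control 1 at 5.15 and control 2 at 4.32), and Col19a1, which some neurons make, read 4.49 to 4.52 in control and 4.40 to 4.50 in knockout brain.

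The 4 transmembrane collagens span the cell membrane and can be shed from it. Col23a1 had the lowest value of the 43 genes tested. It read 6.09, 6.36 and 5.82 in control and 5.86, 5.64 and 5.55 in knockout brain. Knockout 1 read slightly above control 3, so the groups overlapped, and within each pair of same-numbered arrays the knockout was lower, by -0.23, -0.72 and -0.27. The log2 fold change was -0.40 ± 0.162 (SE), or 0.756-fold with an interval from 0.582-fold to 0.982-fold (limma unadjusted p = 0.039, adjusted p = 1; unadjusted 0.0165 with pairs), and it was -0.268 without control 2 and -0.47 without both arrays numbered 3.

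Col25a1 encodes a membrane collagen made by neurons, whose shed fragment is found in amyloid plaques and which motor axons need to innervate muscle during development. It read 6.07, 6.47 and 6.61 in control and 6.40, 6.29 and 6.46 in knockout brain. The knockout arrays lay inside the range of the control arrays, and the log2 fold change was -0.002 ± 0.155 (SE), with an interval from 0.777-fold to 1.28-fold; its sign turned when no normalization was added (0.03) and after median centring of the arrays (0.066). Col13a1, a collagen of the neuromuscular junction, read 4.44, 4.72 and 4.57 in control and 4.72, 4.67 and 4.59 in knockout brain, at 0.08. Col17a1, of epithelial hemidesmosomes, read 4.26, 4.45 and 4.30 in control and 4.51, 4.46 and 4.37 in knockout brain, at 0.11 ± 0.108 (SE).

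The multiplexins Col15a1 and Col18a1 are basement membrane proteins of vessels, and Col18a1 is the precursor of endostatin. Col18a1 read 3.79, 3.25 and 3.97 in control and 3.67, 3.83 and 4.14 in knockout brain. Both arrays numbered 3 were highest and control 2 was lowest, and the log2 fold change was 0.21 ± 0.21 (SE), and it was 0.001 without control 2. Col15a1 read 3.90, 4.10 and 3.98 in control and 3.91, 3.71 and 4 in knockout brain, at -0.12 ± 0.121 (SE). Of the remaining chains, Col26a1 read 4.53, 5.24 and 5 in control and 5.07, 4.86 and 5.03 in knockout brain, at 0.06, and Col28a1 read 3.62, 3.41 and 3.37 in control and 3.51, 3.41 and 3.52 in knockout brain, at 0.01 (-0.019 with values as deposited).

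Of the members, 8 pairs lie next to each other in the RefSeq order of protein-coding genes. Both differences were above 0 in Col3a1 and Col5a2 (0.25 and 0.08) and in Col6a6 and Col6a5 (0.18 and 0.26). Both were below 0 in Col4a6 and Col4a5 (-0.34 and -0.007), Col4a1 and Col4a2 (-0.16 and -0.009) and Col4a4 and Col4a3 (-0.11 and -0.002), in each of which the second value was close to 0. Signs were opposite in Col6a2 and Col6a1 (-0.25 and 0.04), Col6a5 and Col6a4 (0.26 and -0.03) and Col9a1 and Col19a1 (0.07 and -0.05). A second probeset was on the array for Col1a2, Col5a1 and Col6a1, dimmer in each case, with differences of -0.043, -0.108 and 0.05 against 0.096, -0.171 and 0.043 for the brighter one. The Col1a2 probesets thus disagreed in sign, and on the dim one, at 2.79 to 3.15, knockout 3 was lowest but control 3, at 3.09, was the highest control array.

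The genes that build, modify, bind and degrade collagen were read from the same fit. Of 77 such genes, 71 were matched and 67 tested; 0 passed the adjusted threshold, and 2 (2.99%) had a limma unadjusted p under 0.05, against 1.7% of all genes, or 5 (7.46%) with same-numbered arrays as pairs, against 4.85%. Among 18 tested enzymes and chaperones of collagen maturation, 13 lay above and 5 below 0, with a median of 0.109, where 54.8% of all genes tested lay above 0. The 5 below 0 were P4hb (-0.037), P3h4 (-0.133), Ppib (-0.042), Colgalt2 (-0.139) and Mia3 (-0.021). Crtap, which forms the complex that 3-hydroxylates collagen prolines, read 4.85, 4.70 and 4.90 in control and 5.23, 5.54 and 5.40 in knockout brain. Every knockout value exceeded every control value, and the log2 fold change was 0.57 ± 0.123 (SE; limma unadjusted p = 0.00201, adjusted p = 1). Groups without overlap were seen in 2 of the 67 partner genes tested (2.99%), Crtap and Lamc3, against 5.7% of all genes tested. Sec24d, of the coat that exports procollagen from the endoplasmic reticulum, was at 0.24 ± 0.133 (SE) and the lysyl hydroxylase Plod1 at 0.20 ± 0.132 (SE). Serpinh1, the collagen chaperone HSP47, was at 0.31 ± 0.214 (SE), with unadjusted limma p values of 0.19 and, with pairs, 0.0202. Serpinh1 and P4ha1, a prolyl 4-hydroxylase subunit (0.27, named after its values were seen), were lowest on both arrays numbered 3, as Col1a1 and Col1a2 were. Of the 18 maturation genes 5 (27.8%) lay below all other arrays on both of these and 2 above (P4ha3 and Mia3), where 20.6% of all genes tested lay below.

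Of 10 tested enzymes of procollagen processing and cross-linking, 2 lay above 0 (median -0.026), with the C-proteinase Bmp1 at 0.11 and the N-proteinase Adamts3 at -0.15. Of 9 collagen receptors 7 lay above 0 (median 0.098), with the integrin chain Itga2 at 0.34 ± 0.163 (SE) and the receptor kinase Ddr2 at 0.17. Of 7 fibril-binding proteoglycans 5 lay above 0 (median 0.161; 0.048 without both arrays numbered 3), with fibromodulin, Fmod, at 0.32 ± 0.301 (SE) and Aspn at 0.16. Of 16 basement membrane partners 9 lay above 0 (median 0.009). Among these the laminin chain Lamc3 read 4.81, 5.24 and 4.84 in control and 4.67, 4.40 and 4.65 in knockout brain, without overlap, a log2 fold change of -0.39 ± 0.152 (SE; limma unadjusted p = 0.0352, adjusted p = 1), and Lama4, a laminin of vessels, was at -0.21. Of 7 tested collagenases and inhibitors 5 lay above 0 (median 0.089), with the gelatinase Mmp9 at 0.22 and the membrane protease Mmp14 at 0.15.

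Array by array, both arrays numbered 3 lay below all others in 6 of the 43 genes tested (14%), namely Col1a1, Col1a2, Col11a2, Col6a2, Col9a1 and Col9a3, and above all others in 1 (2.33%), Col18a1, against 20.6% and 23.4% of all genes tested; these shares were not tested. Meningeal fibroblast markers other than collagens lay lowest on both arrays numbered 3 in 11 of 12 genes, with median deviations from each gene's mean of -0.56 on control 3 and -0.42 on knockout 3 and from 0.08 to 0.40 elsewhere. Endothelial markers lay highest there in 9 of 9 genes, with median deviations of 0.73 and 0.94, against -0.60 to -0.17 elsewhere. Neuron markers were highest there too, in 6 of 6 genes, with median deviations of 0.37 and 0.31. The fibrillar chains had median deviations from -0.15 to 0.08 and the basement membrane chains from -0.11 to 0.19. Col1a1 and Col1a2 were highest on knockout 1, where the median deviation was 0.08 for fibroblast, -0.60 for endothelial and -0.14 for neuron markers. The part of fibroblast, vessel or neuron content in the values of Col1a1, Col1a2 and Col18a1 was not tested.

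**Figure D4:**
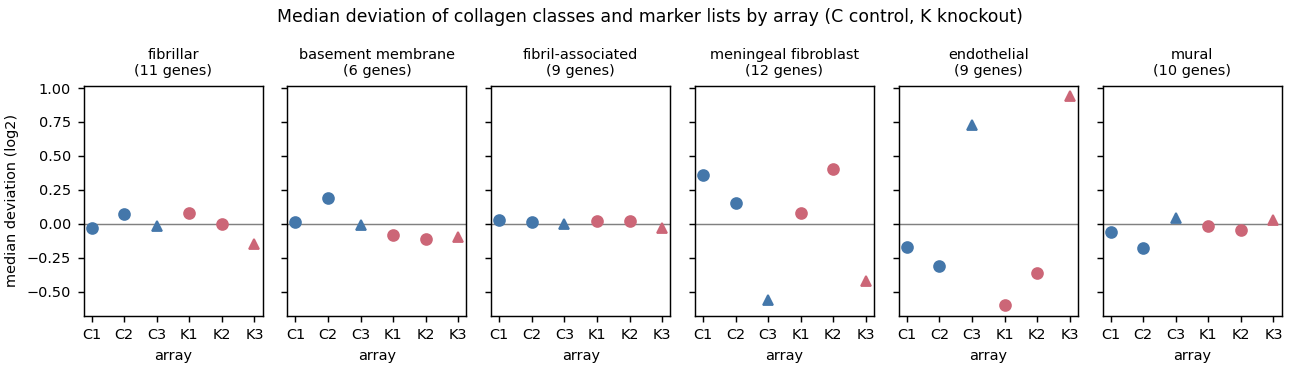
Median deviation, on the log2 scale, of 3 collagen classes and 3 marker lists on each array (C control, blue; K knockout, red; triangles, arrays numbered 3), where the deviation of a gene is its level minus its mean over 6 arrays. The meningeal fibroblast and endothelial lists separate the arrays numbered 3 from the other 4 in opposite directions, while the 3 collagen classes shown stay between -0.15 and 0.19. The short chain class (2 genes), not shown, reached 0.37 on knockout 2 and -0.32 on knockout 3.

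The marker lists were compared between the groups in the same fit. Of their genes, 0 had an adjusted limma p under 0.05 or an unadjusted one under 0.05, where 0% and 1.7% of all genes tested did. With same-numbered arrays as pairs, an unadjusted limma p under 0.05 was found for 1 of 12 fibroblast markers (Foxc1), 1 of 9 endothelial markers (Slco1a4) and 1 of 10 mural markers (Acta2). The other lists had 0 such genes, and 4.85% of all genes tested passed this limit with pairs. The median log2 fold change was 0.089 for meningeal fibroblasts (12 genes), 0.002 for endothelium (9), 0.017 for mural cells (10) and 0.033 for choroid plexus (9). Without both arrays numbered 3 the endothelial median was -0.17. The transporters Slco1a4 and Abcb1a were at -0.81 and -1.07 there (limma unadjusted p = 0.00343 and 0.00307, adjusted p = 0.932 for each). In that fit 5.13% of all genes tested had an unadjusted p under 0.05. The other endothelial markers ran from -0.202 (Flt1) to 0.021 (Esam), with Pecam1 at 0.002 and Kdr at 0.019. The part of vessel content in the basement membrane values, whose median was -0.105 in that fit, was not tested. Over all 6 arrays the median was 0.029 for neurons (6), -0.056 for oligodendrocytes (3), -0.054 for their precursors (3) and 0.097 for astrocytes (4). Without both arrays numbered 3 these medians were 0.056, -0.018, -0.157 and 0.092 in the same order. Of tissues that could cling to a dissected brain, pituitary markers (5 tested) had a median of 0.13, and of -0.235 without both arrays numbered 3; the prolactin gene Prl read 5.84 on knockout 3 and 3.14 to 3.77 on the other arrays. Bone and cartilage markers (5) had a median of 0.105 and skeletal muscle markers (2 tested) one of -0.155. No matched marker was listed at 0. The summed deposited intensity of the 12 fibroblast markers ran from 634 to 1750 in control and from 785 to 1570 in knockout brain, and that of the 9 endothelial markers from 292 to 611 and from 235 to 675, so the ranges of the groups overlapped in both.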

How the data were processed

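Each of the 6 arrays gave intensity values of 41340 probesets on a linear scale in the table the authors deposited; the submitters' processing notes name MAS5, with version and scaling target not given in the sources used here. No depth applies to arrays, and the number of arrays limits the precision. Array medians of log2(intensity + 1) differed by 0.12, above a limit of 0.1, so arrays were quantile normalized. Of the probesets, 23521 had 1 gene symbol, 1814 several and 16005 none; 1 of those with several included a collagen chain and was not used. The table has 0 unused columns of samples. The dimmest 25% of genes by mean level (5545) did not enter the fit. All 44 members were matched to the RefSeq table of GRCm38.p6 by gene identifier, used for names and neighbours.

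Knockout and control were compared over 16635 genes with limma 3.58.1 in R 4.3.3 (lmFit, eBayes, two-sided, Benjamini-Hochberg at 0.05). The fit was also run on simulated data with independent noise on each array. Those data lack the shift shared by both arrays numbered 3, so they cannot check the fit for it. Plots used matplotlib 3.10.9 in Python 3.11.15. To see whether replicate numbers pair the arrays, the deviations of same-numbered arrays from their groups were correlated (0.31, 0.37 and 0.75), above the limit of 0.1 for each. Only number 3 was specific to its pair. Control 1 correlated more with knockout 2 (0.40), and control 2 correlated at 0.37 with knockout 1 and with knockout 2. The check therefore cannot decide how the arrays numbered 1 and 2 pair, and no label says what the numbers share. The fit without pairs is the one reported. The collagen genes, their classes, the partner and marker lists and the rule for named genes (a fixed set of chains and up to 3 per class with the smallest p, and 2 to 4 per partner list) were chosen with earlier results of these data known. Of 77 partner genes 6 had no probeset of their own symbol alone, and none of 4 red blood cell markers was matched.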

Additional observations from a re-analysis of the deposited data

How the results depend on the processing

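The count of collagen chain genes with an adjusted p under 0.05, and that of partner genes, was 0 in every setting run. With the lowest 50% of genes left out, 1 of the 15 collagen chain genes still tested (6.67%) had an unadjusted limma p under 0.05. Of 43 collagen chain genes, 1 (2.33%) passed with a pseudocount of 16 and 4 (9.3%) with array weights. Without both arrays numbered 3 it was 5 of 43 (11.6%), and with 1 array left out in turn 0 to 3 of 43. Of all genes tested, 0.794% passed with the lowest 50% left out, 1.29% with the pseudocount of 16, 4.54% with array weights, 5.13% without both arrays numbered 3 and 0.98% to 3.45% with 1 array left out. The count of partner genes was 1 of 44 (2.27%) with the lowest 50% left out and 5 of 67 (7.46%) with the replicate block. It was 4 of 67 (5.97%) without both arrays numbered 3, and 1 to 4 of 67 with 1 array left out. With same-numbered arrays as pairs (the replicate block), 3 of 43 collagen chain genes (6.98%) passed that limit, against 4.85% of all genes tested. The block changed no call at the adjusted threshold. The fibril-associated median was -0.067 with values as deposited, -0.018 with a pseudocount of 16 and -0.049 to 0.018 with 1 array left out. The median of beaded filament and anchoring fibril chains was 0.076 with array weights, 0.082 without both arrays numbered 3 and -0.024 to 0.031 with 1 array left out, and the transmembrane median -0.072 to 0.099. With 1 array left out the fibrillar median ran from -0.094 to 0.047, the basement membrane median from -0.128 to -0.042 and the short chain median, over 2 genes, from -0.144 to 0.199. Among the chains whose array values are printed, signs turned only for those with main values from -0.089 (Col9a2) to 0.096 (Col1a2). With values as deposited these were Col25a1 (0.03) and Col28a1 (-0.019). With arrays centred on their median they were Col4a2 (0.02) and Col25a1 (0.066). With array weights they were Col8a2 (0.02), Col25a1 (0.013) and Col28a1 (-0.003). Without both arrays numbered 3 they were Col8a2 (0.094), Col9a2 (0.006), Col25a1 (0.073) and Col28a1 (-0.057). With 1 array left out, values ran from -0.176 to 0.332 for Col1a2, -0.123 to 0.092 for Col4a2, -0.074 to 0.252 for Col8a1, -0.218 to 0.146 for Col8a2, -0.204 to 0.023 for Col9a2, -0.159 to 0.111 for Col25a1, -0.135 to 0.219 for Col26a1 and -0.036 to 0.093 for Col28a1. The cause was not tested. With 3 arrays per group, the median half-width of the 95% confidence interval was 0.33 on the log2 scale, and dim chains near the array medians limit what could be detected.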
